A study of Mus musculus with 50 samples.

Results

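Of the 13 messenger RNAs (mRNAs) that the mouse mitochondrial genome encodes, 7 were well measured in these libraries: mt-Nd1, mt-Nd2, mt-Nd4, mt-Nd5 and mt-Nd6 for subunits of respiratory complex I, mt-Cytb for cytochrome b of complex III, and mt-Co1 for the first subunit of complex IV. They were chosen by name, as the mitochondrial protein-coding genes with high counts, and are 7 of the 55487 genes in the files. The values behind the choice are mean levels over the 50 libraries in CPM, the counts of a gene scaled to the library's total. Just inside it stood mt-Nd6 with 667 CPM and just outside it mt-Nd3 with 13.1 CPM. The other 5 mRNAs outside it, mt-Atp8, mt-Co2, mt-Atp6, mt-Nd4l and mt-Co3, had 0.885 to 4.99 CPM. That gap describes how the 7 were picked and is not a finding. All 13 passed the filter on low counts.

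The libraries hold poly(A)-captured RNA from the frontal cortex of single mice, in 10 groups of 5: wild-type and Setd1a+/- animals at embryonic days E14 and E18 and at postnatal days P7, P35 and P70. The Setd1a+/- mice carried 1 loss-of-function allele of Setd1a, named tm1d, in every cell, and were offspring of heterozygous fathers and wild-type mothers. The study asks how loss of 1 copy of this histone methyltransferase gene changes cortical gene expression through development. Totals ran from 35507165 to 43907318 counts per library, and the medians of the wild-type and Setd1a+/- libraries were 38621490 and 38680536. Whether depth or the number of mice limits the precision was not tested. The labels give the strain of every group as C57BL/6NTac, while the methods describe a mixed C57BL/6NTac and C57BL/6J background. The labels give whole embryonic days, and the methods place both embryonic ages part of a day later. The tissue of embryos is described in the methods as frontal brain regions, and at every age it was homogenised in a synaptic protein extraction buffer before RNA was taken.

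Mitochondrial DNA is transcribed from both strands into long precursors that are cut, mostly at transfer RNAs, into single mRNAs, which receive short poly(A) tails. Its products are core subunits of the respiratory chain and of ATP synthase and work only together with the many subunits that the nucleus encodes. Neurons depend on this chain for most of their ATP, and mitochondria are known to become more abundant as cortex matures.

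A library of the P7 wild-type group, replicate 2, stood apart from the rest in markers of cell types. It had 1280 CPM of oligodendrocyte markers against 122 to 174 in the other 4 libraries of its group, 624 CPM of choroid plexus markers against 4.48 to 7.07, and the lowest sum of neuronal markers, 1730 against 2380 to 2460 CPM. It also lay farthest from its group over all tested genes, with a root mean square log2 deviation of 0.694. Next came replicate 2 of the Setd1a+/- E14 group with 0.604, which had the highest levels of mt-Nd5 and mt-Nd6 at E14. Replicate 5 of the wild-type E14 group and replicate 2 of the wild-type E18 group had 60159 and 55644 counts of Xist, against at most 27 in the other 48 libraries, and at most 11 counts on 4 Y-linked genes, against at least 4711. The methods give all mice as male, and these 2 libraries go against that. The genotype results of mt-Nd5 and mt-Nd6 are given with and without P7 wild-type replicate 2 and the 2 libraries with Xist counts. Across ages edgeR called both mRNAs with any single library left out.

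The level of the deleted gene itself does not check the genotype labels here. Setd1a reads were counted over all exons, while the allele lacks only part of the gene. Setd1a had 119 to 136 CPM in wild-type and 128 to 150 CPM in Setd1a+/- libraries at E14. The ranges were 85.4 to 100 against 96.9 to 117 CPM at E18, 70.2 to 76.2 against 76.4 to 83.7 at P7 with no overlap, 81.7 to 91.7 against 88.2 to 91.9 at P35, and 81.6 to 92.0 against 76.6 to 97.8 at P70. The Setd1a+/- mean was higher at 4 of 5 ages, all but P70. Across ages it was called higher in Setd1a+/- by edgeR (log2 fold change 0.10, standard error 0.03). Whether single libraries carry the genotype on their label was therefore not tested. For this mouse line the paper cites an earlier report of reduced Setd1a protein in the cortex of heterozygotes.

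The 7 genes lie on chromosome M of GRCm38, and their transcripts are taken from GENCODE vM21. On the plus strand stand mt-Nd1 (ENSMUSG00000064341, 2751 to 3707), mt-Nd2 (ENSMUSG00000064345, 3914 to 4951) and mt-Co1 (ENSMUSG00000064351, 5328 to 6872), followed by mt-Nd4 (ENSMUSG00000064363, 10167 to 11544), mt-Nd5 (ENSMUSG00000064367, 11742 to 13565) and mt-Cytb (ENSMUSG00000064370, 14145 to 15288). The light-strand gene mt-Nd6 (ENSMUSG00000064368, 13552 to 14070) is the sole mRNA annotated on the minus strand, and its last 14 bases overlap the last 14 bases of mt-Nd5 on the other strand. The last 60 bases of both are shown with this shared stretch in capitals, each in its own 5′ to 3′ direction, because these 2 mRNAs carry the genotype result.
mt-Nd5: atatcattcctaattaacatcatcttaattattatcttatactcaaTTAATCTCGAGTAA
mt-Nd6: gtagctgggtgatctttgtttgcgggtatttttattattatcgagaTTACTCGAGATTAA
The capitals are reverse complements of each other. Fragments were counted without regard to strand and were counted for every gene they overlapped, so a fragment over the shared bases counts for both genes. Fragments of RNA read from the strand opposite mt-Nd6, to which mt-Nd5 precursors are known to extend, would also count as mt-Nd6. The mt-Nd6 mRNA is known as the exception that carries little or no poly(A) tail, and the 2 strands cannot be told apart in these counts.

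The ends of the other 5 mRNAs differ in how their stop codon is written, shown here with the last bases of each reading frame in capitals.
mt-Nd1: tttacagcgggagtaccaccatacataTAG
mt-Nd2: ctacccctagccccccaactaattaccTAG
mt-Nd4: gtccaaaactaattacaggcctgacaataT
mt-Cytb: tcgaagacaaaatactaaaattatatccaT
mt-Co1: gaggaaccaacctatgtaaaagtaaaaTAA
The first 2 and mt-Co1 end in a whole stop codon, and mt-Nd4 and mt-Cytb end in a single T to which the poly(A) tail is known to add the missing bases. Base composition set mt-Nd6 apart from the other 6. It held 28.1% G and 5.97% C, against 8.0 to 16.1% G and 23.8 to 27.7% C in the 6 mRNAs of the other strand.

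The nuclear genome holds copies of mitochondrial DNA, and reads that fit more than 1 place were not counted. Windows of 150 bases, the read length, were looked up in 141730 annotated transcripts of nuclear chromosomes. No window of mt-Nd1, mt-Nd2, mt-Nd5, mt-Nd6 or mt-Cytb was found there, while 23.6% of the windows of mt-Co1 (in Gm29216) and 59.2% of those of mt-Nd4 (in Gm28439) were. Of the 6 mRNAs with few counts, 5 had 97.0 to 99.8% of their windows in such a transcript. The exception was mt-Atp8 with 0%, which has no annotated nuclear transcript that matches it over a whole window. Its gene starts between mt-Co2 and mt-Atp6, whose copies Gm28661 and Gm10925 are neighbours on chromosome 1. The bases between these copies, from 24614651 to 24614885, lie outside both transcripts. The 0% thus does not show that mt-Atp8 has no nuclear copy. The first 150 bases of mt-Nd3 and of its nuclear counterpart Gm28438 show how close such a copy is, with the only base that differs in capitals.
mt-Nd3: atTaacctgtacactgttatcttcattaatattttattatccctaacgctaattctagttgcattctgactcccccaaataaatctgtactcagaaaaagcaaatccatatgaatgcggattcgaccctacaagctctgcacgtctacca
Gm28438: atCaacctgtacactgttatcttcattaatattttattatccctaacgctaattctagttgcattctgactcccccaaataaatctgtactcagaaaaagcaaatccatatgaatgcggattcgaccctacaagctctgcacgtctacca
The best nuclear match of mt-Nd6, Gm11408, shares 93.6% of 519 bases, and its last 150 bases differ from mt-Nd6 at 7 places, again in capitals.
mt-Nd6: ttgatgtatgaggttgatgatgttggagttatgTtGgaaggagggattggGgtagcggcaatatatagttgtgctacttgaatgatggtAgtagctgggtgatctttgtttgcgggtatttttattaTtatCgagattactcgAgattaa
Gm11408: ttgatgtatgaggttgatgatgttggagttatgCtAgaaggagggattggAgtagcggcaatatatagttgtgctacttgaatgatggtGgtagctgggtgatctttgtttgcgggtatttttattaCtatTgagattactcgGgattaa
A read of mt-Nd6 over these bases has places that tell it from the nuclear copy, while most windows of mt-Nd3 have none. The 7 annotated nuclear copies between bases 24611535 and 24616197 of chromosome 1 themselves had mean levels of 1.39 to 5.43 CPM per kb. Only annotated transcripts were compared, not the nuclear genome.

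**Figure D1:**
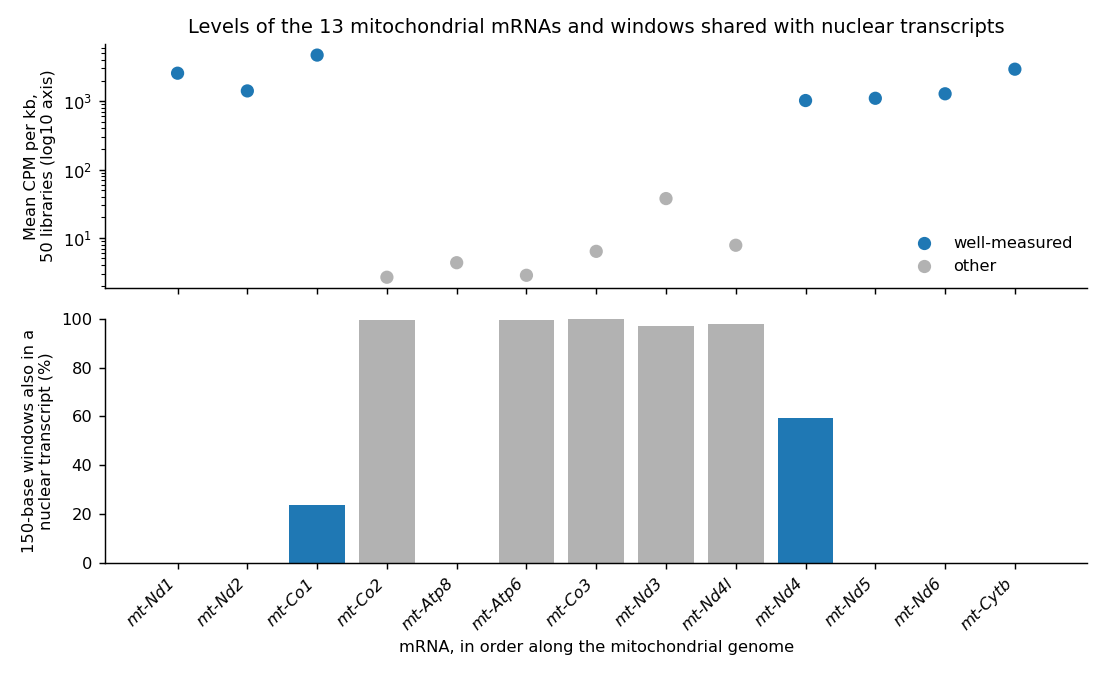
Upper panel: mean level of each of the 13 mitochondrial mRNAs over 50 libraries, in CPM per kb on a log10 axis, with the 7 well-measured mRNAs in blue and the other 6 in grey. Lower panel: percent of all 150-base windows of each mRNA that are also found in an annotated nuclear transcript. The 5 grey mRNAs other than mt-Atp8 have 97.0% or more of their windows in such a transcript, and the blue ones 0 to 59.2%.

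The plot of the 13 mRNAs sets level and shared windows side by side as a description, since the levels are the values that chose the 7. It holds mt-Atp8 with a low level and no window in an annotated nuclear transcript, and mt-Nd4 with a high level and 59.2% of its windows shared. For mt-Nd4 and mt-Co1 counts may come from only a part of their length, so their levels per kb and those of the other 5 are not fully comparable. Whether uncounted reads account for any of the low counts was not tested.

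Levels are given as CPM after TMM scaling (trimmed mean of M values, which scales library sizes), divided by the gene's length in kilobases (CPM per kb) wherever genes are compared. The most abundant was mt-Co1, which encodes the catalytic core subunit of cytochrome c oxidase, with 2410 ± 76.1 CPM per kb at E14 and 8234 ± 524 at P70 (mean ± SD, n = 10 libraries of both genotypes). Next came mt-Cytb, from 1741 ± 138 to 4678 ± 372 CPM per kb, and mt-Nd1, a subunit of the membrane arm of complex I next to the quinone site, from 1353 ± 66.8 to 4223 ± 505 CPM per kb. The other membrane-arm subunits of complex I were lower. For mt-Nd2 the means were 617 ± 38.4 and 2655 ± 225 CPM per kb, for mt-Nd4 526 ± 50.8 and 1773 ± 152, for mt-Nd5 488 ± 41.0 and 1932 ± 176, and for mt-Nd6 555 ± 50.5 and 2298 ± 263.

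The order per kb was in part the same in every library. In 50 of 50 libraries mt-Co1 was above mt-Cytb, mt-Cytb above mt-Nd1, and mt-Nd1 above mt-Nd2. The lower 4 changed places with age: at E14 the order was mt-Nd2, mt-Nd6, mt-Nd4, mt-Nd5, and at P35 and P70 it was mt-Nd2, mt-Nd6, mt-Nd5, mt-Nd4 in 10 of 10 libraries each. Over all ages mt-Nd6 was above mt-Nd5 in 50 of 50 libraries, mt-Nd2 above mt-Nd6 in 41 and mt-Nd5 above mt-Nd4 in 32. The exceptions were 9 of 10 libraries at P7 for the former pair, and the embryonic libraries for the latter, with mt-Nd4 above mt-Nd5 in 8 of 10 at E14. At E18 mt-Nd4 and mt-Nd6 were level, with mt-Nd4 higher in 6 of 10 libraries. Dividing counts by the number of 250-base windows, the shortest insert, that no nuclear transcript holds gives another order. It was mt-Co1, mt-Cytb, mt-Nd1, mt-Nd4, mt-Nd6, mt-Nd2 and mt-Nd5, with mt-Cytb above mt-Nd1 in 44 and mt-Nd4 above mt-Nd6 in 43 of 50 libraries, and the last 3 in that order in 50 of 50. At P7 mt-Nd1 was above mt-Cytb in 4 of 10 libraries and mt-Nd6 above mt-Nd4 in 7 of 10. The order below mt-Co1 thus depends on the divisor, also for mRNAs with no shared window.

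**Figure D2:**
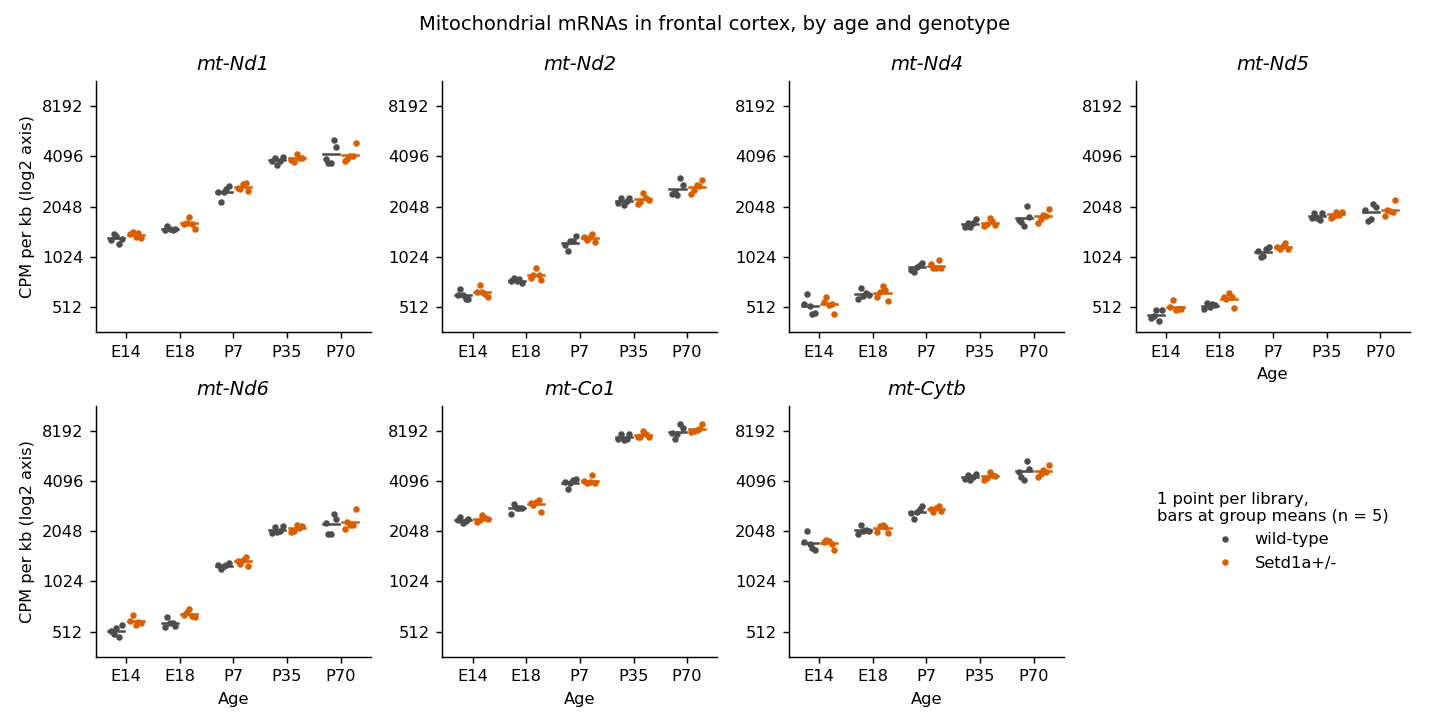
Level of each of the 7 mRNAs by age in every library, in CPM per kb on a log2 axis, with 1 point per library (grey wild-type, orange Setd1a+/-) and a bar at each group mean (n = 5). For all 7 the 10 P70 libraries lie above the 10 E14 libraries.

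All 7 mRNAs rose from E14 to P70, where edgeR called 44.7% of all 16330 tested genes higher and 45.1% lower. The largest increase was that of mt-Nd2 (log2 fold change 2.11, standard error 0.04, adjusted p = 1.25e-37), then mt-Nd6 (2.05), mt-Nd5 (1.99), mt-Co1 (1.77), mt-Nd4 (1.75) and mt-Nd1 (1.64). The smallest was that of mt-Cytb, with 1.43 (standard error 0.04, adjusted p = 2.97e-31), which is 2.69-fold. For each of the 7, all 10 libraries at P70 were above all 10 at E14. How many of all tested genes separated as fully, here or at the single steps in age, was not counted. The median log2 fold change was 1.77 over the 7 and -0.003 over all tested genes. In whole tissue, fewer cells of a type and less RNA per cell cannot be told apart.

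The increase came in unequal steps. From E14 to E18 all 7 rose (36% of all tested genes were called higher by edgeR), with log2 fold changes of 0.15 (mt-Nd6) to 0.31 (mt-Nd2). The groups separated fully for mt-Nd1, mt-Nd2 and mt-Co1, and overlapped for the other 4, most for mt-Nd6, where 2 of 10 E18 libraries were above every E14 library. From E18 to P7 all 7 rose again, against 37.9% of all genes. Here mt-Nd5 (1.05) and mt-Nd6 (1.09) changed most, mt-Nd1 and mt-Nd2 followed (0.73 and 0.75), and mt-Nd4 (0.54), mt-Co1 (0.49) and mt-Cytb (0.38) changed least. All 10 P7 libraries were above all 10 E18 libraries for each of the 7.

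The step from P7 to P35 had another ranking. All 7 were called higher, against 38.0% of all genes, and again no library of the later age was below one of the earlier age. The largest changes were those of mt-Co1 (log2 fold change 0.91) and mt-Nd4 (0.86), which had been among the smallest in the step before, and the smallest that of mt-Nd1 (0.60). From P35 to P70, when 5.00% of all genes were called higher, edgeR called 2 of the 7. These were mt-Nd2 (0.25, adjusted p = 0.000109, 7 of 10 P70 libraries above every P35 library) and mt-Co1 (0.11, adjusted p = 0.0466, 5 of 10). The other 5 had log2 fold changes of 0.09 to 0.12 and adjusted p of 0.0723 to 0.183. The call of mt-Co1 was made in 45 of 63 settings of the analysis and that of mt-Nd2 in 62.

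**Figure D3:**
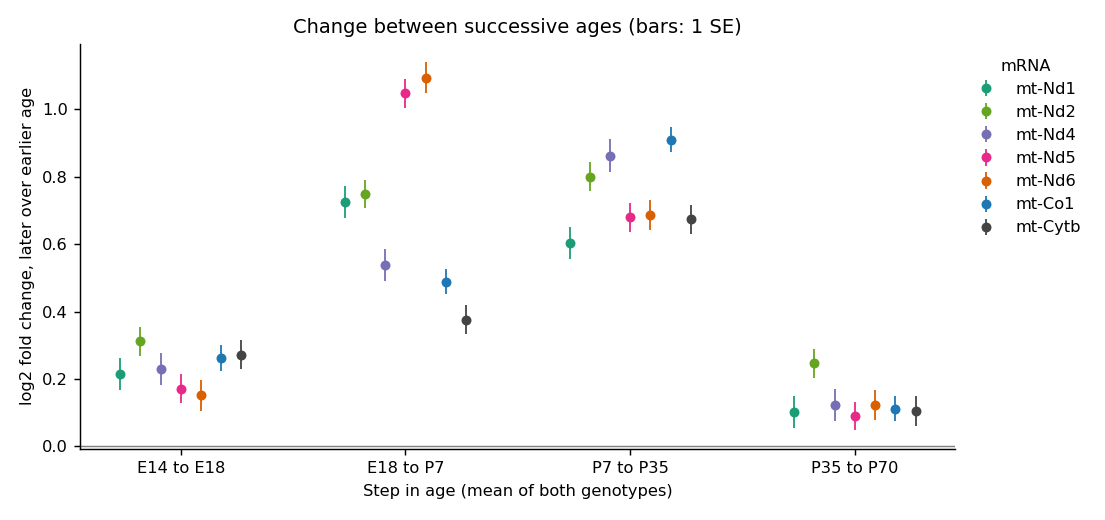
Change of each of the 7 mRNAs between successive ages, as log2 fold change of the later over the earlier age from edgeR, averaged over both genotypes, with bars of 1 standard error. From E18 to P7 mt-Nd5 and mt-Nd6 stand highest at 1.05 and 1.09, and from P7 to P35 mt-Co1 does at 0.91.

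The plot of changes between ages shows the spread among the 7 at each step: 0.38 to 1.09 from E18 to P7, 0.60 to 0.91 from P7 to P35, and 0.15 to 0.31 in the first step. No mRNA led throughout. The pair mt-Nd5 and mt-Nd6, neighbours that overlap on opposite strands, differed by less than the standard error of either at 3 of the 4 steps.

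Shares of the summed level per kb show the shift in composition, as means over the 10 libraries of an age. The share of mt-Cytb went from 22.6 ± 1.12% at E14 to 18.1 ± 0.392% at P70, with no overlap between the 2 ages. The share of mt-Nd2 went from 8.02 ± 0.22% to 10.3 ± 0.284%, also without overlap. The shares of mt-Nd5 and mt-Nd6 stepped up between E18 and P7, from 6.02 to 8.1% and from 6.75 to 9.37%, and were 7.49 and 8.89% at P70. The share of mt-Co1 was 31.4% at E14, 29.0% at P7 and 32.0% at P70, and that of mt-Nd4 lay between 6.40 and 6.87% at all ages. For mt-Nd1 the highest mean share, 18.5%, came at P7. These shares sum to a fixed total, so a change of 1 goes with changes of others.

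Ratios between 2 mRNAs of a library do not depend on how the libraries are scaled. There are 21 pairs, and each was compared between E14 and P70 within each genotype by an exact permutation test over 5 against 5 libraries, two-sided, which cannot give a p below 0.00794. With adjustment over the 42 comparisons, 34 were called at adjusted p under 0.05. The ratio of mt-Nd2 to mt-Cytb moved most, by 0.70 log2 in wild-type and 0.66 in Setd1a+/- (adjusted p = 0.0128 in both, exact permutation test). It went from 0.346 ± 0.0160 to 0.561 ± 0.0213 in wild-type (mean ± SD, n = 5). The ratios of mt-Nd6 to mt-Cytb (0.70 and 0.55 log2) and of mt-Nd5 to mt-Cytb (0.62 and 0.50) came next, both with full separation of the ages in both genotypes. With medians in place of means none of the 42 was called, since with medians of 5 libraries the exact test cannot give a p below 0.0476.

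The ratios that were not called in either genotype were mt-Nd2 to mt-Nd6 (0.00 log2 in wild-type and 0.11 in Setd1a+/-) and mt-Nd4 to mt-Co1 (-0.01 and -0.02). In wild-type alone mt-Nd1 to mt-Nd4, mt-Nd1 to mt-Co1 and mt-Nd2 to mt-Nd5 were not called, and in Setd1a+/- alone mt-Nd5 to mt-Co1. Whether these genotypes differ in the change was not tested for ratios. The ratio of mt-Nd5 to mt-Nd6 per kb changed little, from 0.891 ± 0.0298 at E14 to 0.844 ± 0.0220 at P70 in wild-type (-0.08 log2, adjusted p = 0.0392, exact permutation test) and from 0.869 ± 0.00773 to 0.841 ± 0.0219 in Setd1a+/- (-0.05 log2, adjusted p = 0.0230, exact permutation test).

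**Figure D4:**
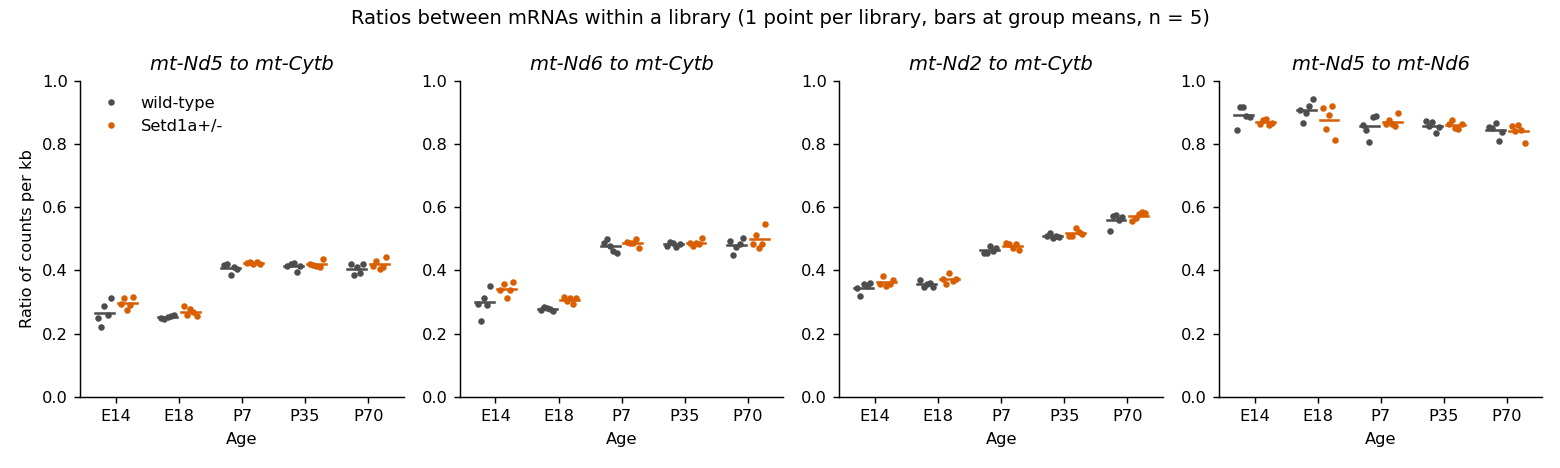
Ratio of counts per kb within each library for 4 pairs of mRNAs by age, with 1 point per library (grey wild-type, orange Setd1a+/-) and bars at group means (n = 5). The ratios of mt-Nd5 and mt-Nd6 to mt-Cytb step up between E18 and P7, that of mt-Nd2 to mt-Cytb goes up over several ages, and that of mt-Nd5 to mt-Nd6 stays between 0.805 and 0.943 in all 50 libraries.

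The plot of ratios shows that the step of mt-Nd5 and mt-Nd6 against mt-Cytb lies between E18 and P7. The ratio of mt-Nd6 to mt-Cytb averaged 0.293 ± 0.0167 at E18 and 0.481 ± 0.0147 at P7 (n = 10 each), and the ranges of 0.273 to 0.315 and 0.454 to 0.499 do not meet. From P7 on it stayed near that level, with 0.485 at P35 and 0.490 at P70. The ratio of mt-Nd2 to mt-Cytb instead went through 0.355, 0.364, 0.471, 0.514 and 0.568 at the 5 ages. Among libraries of 1 group some pairs kept closer than levels did. The within-group standard deviation of log2 values was 0.0388 for mt-Nd4 to mt-Cytb, 0.0423 for mt-Nd2 to mt-Cytb and 0.0425 for mt-Nd5 to mt-Nd6, up to 0.0871 for mt-Nd4 to mt-Nd6, against 0.0731 to 0.107 for the levels of the 7 mRNAs.

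Levels counted as mt-Nd5 and mt-Nd6 were higher in Setd1a+/- than in wild-type cortex, by 1.07-fold and 1.08-fold across ages. Since RNA of the strand opposite mt-Nd6 would count as mt-Nd6, whether these are 2 separate differences cannot be told. The values of mt-Nd5 at E14 were 438, 454, 492, 425 and 494 CPM per kb in the 5 wild-type libraries and 514, 568, 490.4, 501 and 501 in the 5 Setd1a+/- libraries. All 5 Setd1a+/- libraries were above the wild-type median and 4 were above every wild-type library, so the groups overlap in 1 library. At E18 they were 496.5, 544, 516, 532 and 525.5 CPM per kb in the 5 wild-type libraries and 587, 571, 624, 587 and 507 in the 5 Setd1a+/- libraries. Here 4 of 5 Setd1a+/- libraries were above every wild-type library and the fifth, replicate 5, was near the low end. At P7 the values were 1105.5, 1023, 1029, 1141 and 1167 CPM per kb in the 5 wild-type libraries and 1169, 1139, 1190.5, 1237 and 1138 in the 5 Setd1a+/- libraries. Wild-type replicate 2, which stands apart in its markers, was the lowest, and 3 Setd1a+/- libraries were above all wild-type ones. At P35 they were 1751, 1872, 1755, 1714 and 1868.5 CPM per kb in the 5 wild-type libraries and 1747, 1797, 1911, 1826 and 1905 in the 5 Setd1a+/- libraries, with 2 Setd1a+/- libraries above all wild-type libraries. At P70 they were 1963, 1673, 1720.2, 2117 and 2027 CPM per kb in the 5 wild-type libraries and 1802, 1948.5, 1920.0, 1897 and 2254 in the 5 Setd1a+/- libraries. The P70 groups overlap widely, and 1 of 5 Setd1a+/- libraries was above the wild-type median.

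For mt-Nd6 the values at E14 were 518, 495, 536, 477.5 and 558 CPM per kb in the 5 wild-type libraries and 595.5, 649, 558, 582 and 577 in the 5 Setd1a+/- libraries. The 2 groups do not overlap, but by a narrow margin: the highest wild-type library had 558.3 and the lowest Setd1a+/- library 558.4 CPM per kb. At E18 they were 546, 627, 574, 578.5 and 557.5 CPM per kb in the 5 wild-type libraries and 641, 672, 699.7, 637 and 623 in the 5 Setd1a+/- libraries. Of the Setd1a+/- libraries 4 were above every wild-type one, and the highest wild-type value was that of replicate 2, a library with Xist counts. At P7 the values were 1284, 1209.6, 1273, 1289 and 1313 CPM per kb in the 5 wild-type libraries and 1353, 1299, 1379, 1445 and 1269 in the 5 Setd1a+/- libraries, with 3 Setd1a+/- libraries above the wild-type range. At P35 they were 2007, 2179, 2014, 2052 and 2186 CPM per kb in the 5 wild-type libraries and 2021, 2048.5, 2242, 2150.4 and 2202 in the 5 Setd1a+/- libraries, with 2 above it. At P70 they were 2301, 1961, 1982, 2614 and 2419.5 CPM per kb in the 5 wild-type libraries and 2103.5, 2317, 2231, 2247 and 2799.8 in the 5 Setd1a+/- libraries. Here 2 of 5 Setd1a+/- libraries were above the wild-type median, and both groups spread more than at any younger age.

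Across the 5 ages edgeR called 2 of the 7 mRNAs between genotypes, both higher in Setd1a+/-, against 4.43% of all tested genes in either direction and 0.680% called higher. For mt-Nd5 the log2 fold change was 0.10 (standard error 0.03, adjusted p = 0.0217), with 19 of 25 Setd1a+/- libraries above the wild-type median of their age. For mt-Nd6 it was 0.11 (standard error 0.03, adjusted p = 0.0154), also with 19 of 25. Without P7 wild-type replicate 2 the values were 0.09 (adjusted p = 0.0316) and 0.11 (adjusted p = 0.0215), and without the 2 libraries with Xist counts 0.10 (adjusted p = 0.0210) and 0.12 (adjusted p = 0.0125). With library size as the only scaling, mt-Nd5 was not called (0.09, adjusted p = 0.0632), where the adjusted p over 11 settings other than leaving out single libraries ran from 0.00468 to 0.0632. With all libraries and the main edgeR setting, neither was called at a threshold of 0.01 for the adjusted p. Over the 11 settings the smallest adjusted p of each was under 0.01.

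The other 5 mRNAs also had log2 fold changes over 0 but were not called by edgeR: 0.02 for mt-Cytb, 0.03 for mt-Nd4, 0.05 for mt-Co1, 0.06 for mt-Nd1 and 0.07 for mt-Nd2, with standard errors of 0.02 to 0.03 and adjusted p of 0.177 to 0.856. Setd1a+/- libraries above the wild-type median of their age numbered 15 of 25 for mt-Nd4, 17 for mt-Cytb, 20 for mt-Nd2, 21 for mt-Co1 and 23 for mt-Nd1. The median over the 7 was 0.06 and that over all tested genes 0.001. The share of a library's counts that fell on the 7 mRNAs had a higher Setd1a+/- mean at 5 of 5 ages. It was 0.919 ± 0.032% in wild-type and 0.971 ± 0.038% in Setd1a+/- at E14, and 2.86 ± 0.32% and 2.92 ± 0.20% at P70 (mean ± SD, n = 5). The difference across ages was 0.0473 percentage points (p = 0.212, permutation test within ages, two-sided), and at single ages the adjusted p was 0.278 to 0.754 (exact permutation test). Leaving out P70 wild-type replicate 4 gave 0.0705 points (p = 0.0344, permutation test), in a range of p over 55 settings from 0.0344 to 0.417. Leaving out P70 Setd1a+/- replicate 5 gave 0.0314 points, the smallest difference over these settings.

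**Figure D5:**
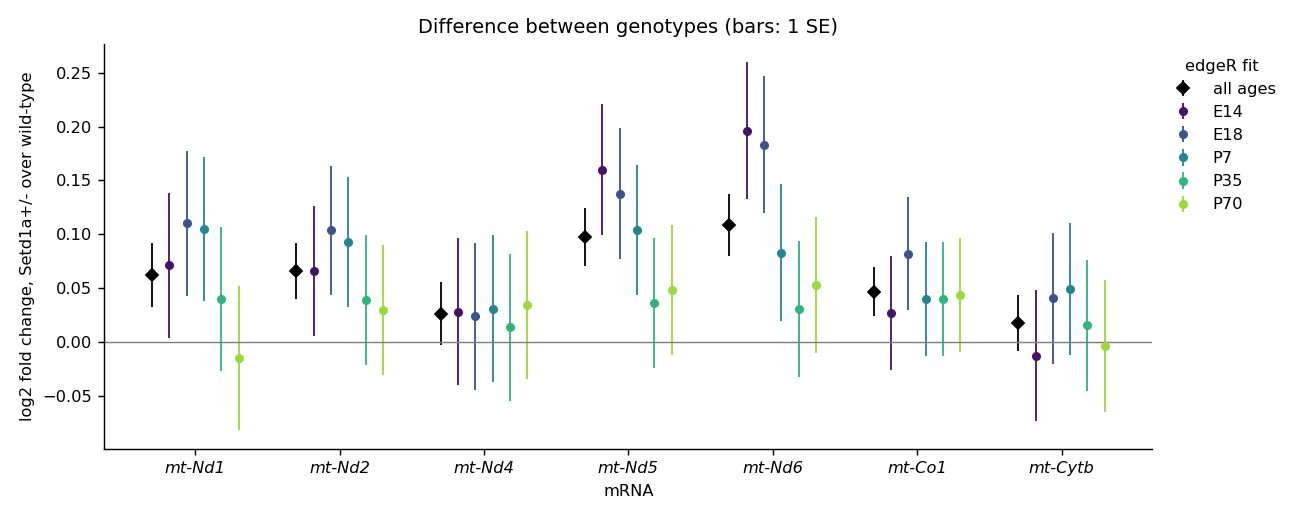
Difference between genotypes for each of the 7 mRNAs, as log2 fold change of Setd1a+/- over wild-type from edgeR, across all ages (black) and at each age (colours), with bars of 1 standard error. The largest single values are those of mt-Nd6 at E14 and E18, 0.20 and 0.18.

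In the plot of genotype differences mt-Nd5 and mt-Nd6 are highest at E14 and E18. The log2 fold change of mt-Nd6 was 0.20 at E14 (adjusted p = 0.151, edgeR), 0.18 at E18 and 0.03 to 0.08 at the 3 later ages. That of mt-Nd5 was 0.16, 0.14, 0.10, 0.04 and 0.05 in order of age. Over 61 settings the P70 value ran from -0.02 to 0.11 for mt-Nd6 and from -0.004 to 0.09 for mt-Nd5, so its direction is not fixed, and the P35 values from 0.01 to 0.05 and from 0.02 to 0.06. None of these differences between ages was called: edgeR called 0 of 7 mRNAs for an interaction of age and genotype (adjusted p = 0.957 for mt-Nd6 and adjusted p = 0.995 for mt-Nd5), 0 at an unadjusted p under 0.05, and DESeq2 and limma-voom also called 0 of 7. Over all genes edgeR called 0% for the interaction, with 1098 of 16330 genes at an unadjusted p under 0.05, 21 called by DESeq2 and 0 by limma-voom.

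At single ages edgeR called 0 of the 35 differences (7 mRNAs at 5 ages), and DESeq2 and limma-voom also called 0. An unadjusted p under 0.05 was found for 4 of the 35, mt-Nd5 and mt-Nd6 at E14 and E18. Over all genes it was found in 6819 of 81650 tests at single ages, with 1895 of 16330 genes at E14 and 1857 at E18. Of all genes edgeR called 0.129% for E14, 0.110% for E18, 0.735% for P7, 0% for P35 and 0.233% for P70. At P35 550 genes had an unadjusted p under 0.05, and DESeq2 called 11 and limma-voom 0. Whether the E14 difference of mt-Nd6 was called depends on 1 library: without wild-type replicate 5, the E14 library with Xist counts, it was called (0.22, adjusted p = 0.0438), and likewise without both libraries with Xist counts (0.22, adjusted p = 0.0415). Over 61 settings the difference was 0.16 to 0.23 and its adjusted p 0.0415 to 0.888.

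Ratios within libraries were compared between genotypes by a permutation test of libraries within ages, two-sided with 100000 resamples, and adjusted over the 21 pairs. There were 10 called pairs, and in 7 of them mt-Nd5 or mt-Nd6 was higher in Setd1a+/- against another mRNA. The pairs are formed from the same 7 levels in the same libraries, so these calls are not separate findings. Those with mt-Nd5 or mt-Nd6 in part restate the differences in level given above. The ratio of mt-Nd6 to mt-Cytb was higher by 0.09 log2 (adjusted p = 0.00189, permutation test), at 5 of 5 ages and in 22 of 25 Setd1a+/- libraries against the wild-type median of their age. At E18 its values were 0.293 to 0.315 in Setd1a+/- and 0.273 to 0.283 in wild-type libraries, with no overlap. The ratio of mt-Nd5 to mt-Cytb was higher by 0.08 (adjusted p = 0.00378, permutation test, 21 of 25). The ratio of mt-Nd4 to mt-Nd6 was lower, with -0.08 log2 (adjusted p = 0.00562, permutation test, 20 of 25), and so was that of mt-Nd4 to mt-Nd5, with -0.07 (adjusted p = 0.0149, permutation test, 18 of 25). The smaller ones were mt-Nd6 to mt-Co1 (0.06, 16 of 25), mt-Nd5 to mt-Co1 (0.05, 19 of 25) and mt-Nd1 to mt-Nd6 (-0.05, 19 of 25). These smaller ones were not called with a replicate block, under which 7 of the 21 pairs were called.

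The other 3 called pairs did not hold mt-Nd5 or mt-Nd6. They were mt-Nd2 to mt-Cytb (0.05, adjusted p = 0.00189, permutation test, 22 of 25), mt-Nd1 to mt-Cytb (0.04, 17 of 25) and mt-Nd2 to mt-Nd4 (0.04, 19 of 25). The pair mt-Nd5 to mt-Nd6 was not called (-0.01, adjusted p = 0.41, permutation test, 14 of 25). The called changes are 1.03-fold to 1.06-fold in size, or 0.945 to 0.969 where lower. With medians in place of means 3 pairs were called, those of mt-Nd2, mt-Nd5 and mt-Nd6 to mt-Cytb. Medians moved mt-Nd4 to mt-Nd5 to -0.03 (adjusted p = 0.25, permutation test), mt-Nd6 to mt-Co1 to 0.04 (adjusted p = 0.268, permutation test) and mt-Nd4 to mt-Nd6 to -0.06 (adjusted p = 0.0668, permutation test). Leaving out single libraries gave 8 to 12 called pairs, with 12 without P7 wild-type replicate 2 and 12 without the libraries with Xist counts.

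Each complex also holds nuclear-encoded subunits, and their mean level per kb gives a measure of how the 2 genomes' mRNAs compare. For complex I the 5 measured mitochondrial mRNAs averaged 23.1 ± 3.5 times the 36 nuclear ones at E14, 36.2 ± 2.53 times at P7 and 51.8 ± 4.55 times at P70 (mean ± SD, n = 10). For complex III the ratio of mt-Cytb to 9 nuclear mRNAs was 36.8 ± 5.78 at E14, 39.9 ± 2.27 at P7 and 60 ± 3.85 at P70. For complex IV the ratio of mt-Co1 to 16 nuclear mRNAs was 38.2 ± 4.17, 38.0 ± 1.54 and 61.2 ± 3.72 at these ages. The ratio of complex I was thus already higher at P7 than at E14 in every library (31.6 to 40.5 against 18.8 to 29.3), while the ranges of complexes III and IV overlapped between these ages. These are descriptions with no test, and levels of mt-Nd4 and mt-Co1 carry the limit of uncounted reads. The ratios leave out mt-Nd3, mt-Nd4l, mt-Co2 and mt-Co3, which had few counts, so their size rests in part on how the measured mRNAs were chosen.

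Most nuclear subunits also rose from E14 to P70. Of 36 nuclear complex I mRNAs edgeR called 34 higher and 0 lower (44.7% and 45.1% of all genes), with a median log2 fold change of 0.68, led by Ndufa5 (1.19), Ndufs7 (1.06) and Ndufb9 (1.05). All 9 of complex III were called higher, with a median of 0.67 and Uqcr10 (1.12), Uqcr11 (1.05) and Uqcrq (0.89) in front. Of 16 of complex IV 14 were called higher and 1 lower, with a median of 1.07. Among them Cox8a rose by 1.85 and Cox5b by 1.18, and Cox6a2, the muscle-type isoform, went from 0.0232 to 3.49 CPM. The difference of these medians from that of the 7 mRNAs, 1.77, was not tested.

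Between genotypes no nuclear subunit on these lists was called higher. Of the 36 of complex I 16 had an unadjusted p under 0.05, against 2360 of all 16330 genes. Called by edgeR were 0 higher and 7 lower in Setd1a+/-, against 0.680% and 3.75% of all genes (7 called by DESeq2 and 7 by limma-voom), with a median of -0.03 over the 36. The strongest were Ndufc1 (-0.26, standard error 0.04), Ndufa7 (-0.16, standard error 0.03) and Ndufv3 (-0.10, standard error 0.03). Of the 9 of complex III edgeR called 0 (2 at an unadjusted p under 0.05) and of the 16 of complex IV 0 (1), and DESeq2 and limma-voom called 0 in both.

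Genes for the copying and reading of mitochondrial DNA mostly went the other way with age. Of 17 tested, edgeR called 1 higher and 14 lower at P70 against E14 (44.7% and 45.1% of all genes), with a median of -0.50, among them Primpol (-1.67), the polymerase subunit Polg2 (-1.42) and the single-strand binding protein Ssbp1 (-1.34). The RNA polymerase Polrmt had -0.37 and the transcription and packaging factor Tfam -0.59, both called lower. Between genotypes 2 were called, both lower in Setd1a+/- (3.75% of all genes): the topoisomerase Top1mt (-0.17, standard error 0.04) and the elongation factor Tefm (-0.19, standard error 0.05). Polrmt had 0.07 (standard error 0.03) and Tfam -0.02 (standard error 0.03), and neither was called.

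Of 19 listed genes for processing and stability of mitochondrial RNA 18 were tested, since Prorp matched no symbol. From E14 to P70 edgeR called 3 higher and 13 lower (44.7% and 45.1% of all genes), with a median of -0.47, among them Pde12 (-0.84), which removes poly(A) tails in mitochondria, and Hsd17b10 (-0.75), a part of the enzyme that cuts transfer RNAs at their 5′ end. The exonuclease Rexo2 rose by 1.03. Lrpprc, which with Slirp stabilises mitochondrial mRNAs, was called higher in Setd1a+/- (0.06, standard error 0.02) and Fastk, known to act on mt-Nd6 RNA, lower (-0.09, standard error 0.02). These were the 2 of 18 called between genotypes, 1 in each direction, against 0.680% higher and 3.75% lower of all genes. Slirp had -0.06 (standard error 0.02) and was not called. Of 8 regulators of mitochondrial biogenesis 3 were called higher with age and 5 lower, a split near that of all genes (44.7% and 45.1%). Ppargc1a rose by 2.08 and Ppargc1b by 3.75, while the transcription factor Nrf1 changed by -1.72. None of the 8 was called between genotypes by edgeR, DESeq2 or limma-voom. With edgeR 1 of the 8 had an unadjusted p under 0.05, against 2360 of all 16330 genes.

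Markers of cell types moved with age alongside the 7 mRNAs. From E14 to P70 edgeR called 5 of 5 markers higher for neurons, astrocytes, oligodendrocytes and microglia each, 3 of 5 for endothelium and 1 of 5 for choroid plexus (44.7% of all genes). It called 5 of 5 lower for neural progenitors and red blood cells, and 4 of 5 for choroid plexus (45.1% of all genes). The gene named with each sum is the most abundant of its list in the mean over all 50 libraries, which for some lists is not the most abundant at each age. The neuronal sum (Snap25) was 331 to 550 CPM at E14 and 5980 to 6860 at P70. That of astrocytes (Slc1a2) was 96.9 to 141 and 2470 to 3110 CPM, that of oligodendrocytes (Mbp) 39.6 to 56.2 and 3250 to 4390. The microglial sum (Csf1r) averaged 45.9 CPM at E14 and 229 at P70. The progenitor sum (Sox2) was 567 to 863 CPM at E14 and 61.1 to 85.4 at P70.

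The sum for red blood cells (Hbb-bs) was 255 to 1030 CPM at E14 and 59.4 to 198 at P70, that for endothelium (Slc2a1) 135 to 551 and 261 to 403, and that for choroid plexus (Ttr) 0.94 to 471 and 4.39 to 41.3. Counts of 0 were found for Gfap and Mobp in 1 library each, for Ttr in 3 and for Folr1 in 5, and for none of the other 36 markers of these 8 lists. Between genotypes edgeR called 0 of these 40 markers across ages, against 4.43% of all genes, and limma-voom called 0. DESeq2 called 1, against 823 of all 16330 genes. At an unadjusted p under 0.05 edgeR had 2 of the 40, against 2360 of all genes. At P7 edgeR called 3 oligodendrocyte markers and 1 of choroid plexus lower in Setd1a+/- (0.723% of all genes). DESeq2 called 2 and 1 of these lists (128 of all 16330 genes) and limma-voom 0 (16 of all genes). Wild-type replicate 2 held most of the wild-type sums of both lists at that age. At E14 and E18 edgeR called none of the 40. At E14 4 of 5 endothelial markers had an unadjusted p under 0.05 (median log2 fold change 0.73), against 1895 of all 16330 genes. So did 2 of 5 microglial and 1 of 5 astrocyte markers. Endothelial sums were 154 ± 20.4 CPM in wild-type and 244 ± 176 in Setd1a+/- at E14, and 261 ± 78.3 and 184 ± 17.2 at E18 (mean ± SD, n = 5). Those of red blood cells were 507 ± 298 and 757 ± 288 CPM at E14, and 270 ± 126 and 183 ± 42.5 at E18. At E18 DESeq2 called 2 choroid plexus markers (111 of all 16330 genes), with sums of 97.2 ± 118 CPM in wild-type and 9.06 ± 3.83 in Setd1a+/-. The part of cell composition in the changes of the 7 mRNAs was not tested.

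Nuclear genes with the pattern most like the mean log2 level of the 7 over the 50 libraries were Map2k1 (Pearson r = 0.993), Atp6v1c1 (0.992), Dgkb, Hagh and Dgkz (0.991 each). These libraries share ages, so r mostly follows the change with age. After subtraction of group means the highest r over 50 libraries were those of Fndc10 (0.694), Zfp46 (0.675), Coq8a (0.648), Klhl23 (0.642) and Acsl1 (0.632). The lowest were those of Rbm14 (-0.746), Sfpq (-0.741), Papola (-0.733), Cr1l (-0.715) and Tra2a (-0.712). These values of r are descriptions only. None of these 15 genes was called between genotypes by edgeR, with log2 fold changes of -0.13 to 0.08.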

How the data were processed

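Counts of fragments per gene, as deposited by the authors, come from reads trimmed with Trimmomatic, checked with FastQC, aligned to GRCm38 with STAR and counted by featureCounts v1.4.6-p2 without regard to strand, leaving out reads that fit several places. Gene lengths (exonic bases, the Length column) are as deposited and served for levels per kb. For the 16330 protein-coding genes that passed filterByExpr, edgeR 4.0.16 quasi-likelihood tests with TMM scaling compared genotypes across ages, at each age and in interaction with age, and successive ages. A gene was called at a Benjamini-Hochberg adjusted p under 0.05. Ratios and shares were compared by permutation tests in Python (numpy 2.4.6, scipy 1.17.1). Steps were tested on simulated counts. Alternatives were DESeq2 1.42.0, limma-voom 3.58.1, other scalings and filters, RNA integrity number, a replicate block, medians and leave-one-out. Genes named are all members, for each list those among the 3 with the smallest genotype p or the 3 with the largest change from E14 to P70, 6 genes kept whatever their values (Setd1a, Polrmt, Tfam, Lrpprc, Slirp, Ppargc1a) and the genes most alike in pattern. Markers with counts of 0 and nuclear copies were named after their values were seen. Of 9 marker lists, 1 is not reported here. The members and lists were chosen with earlier results of these data known.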

Additional observations from a re-analysis of the deposited data

Results flagged for a closer look

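Within each group of 5, a value was marked when its distance to the nearest other value exceeded 0.71 of the group's range (Dixon's criterion), which chance alone gives in about 1 in 20 groups, and 16 of 290 groups held one. For levels (CPM per kb), mt-Nd1 had 4950 in P70 Setd1a+/- replicate 5 (others 3850 to 4140) and mt-Co1 had 4440 in P7 Setd1a+/- replicate 4 (3990 to 4110), a library whose share of counts on the 7 mRNAs was 1.79% (1.63 to 1.67%). In wild-type libraries, the ratio of mt-Nd1 to mt-Nd6 was 1.72 in P70 replicate 1 (1.89 to 1.95), mt-Nd1 to mt-Cytb 0.896 in P7 replicate 2 (0.933 to 0.944), mt-Nd4 to mt-Cytb 0.282 in E14 replicate 4 (0.299 to 0.304) and mt-Nd5 to mt-Co1 0.26 in P7 replicate 3 (0.275 to 0.279). In Setd1a+/- libraries, mt-Nd1 to mt-Nd2 was 2.12 in E18 replicate 1 (2.03 to 2.04), mt-Nd1 to mt-Cytb 0.97 in P70 replicate 5 (0.872 to 0.889), mt-Nd4 to mt-Nd5 0.93 in E14 replicate 5 (1.04 to 1.07) and 1.0 in E18 replicate 1 (1.1 to 1.11). The ratio of mt-Nd4 to mt-Nd6 was 0.807 in E14 replicate 5 (0.908 to 0.939), 0.634 in P7 replicate 3 (0.675 to 0.688) and 0.72 in P35 replicate 5 (0.771 to 0.786). That P35 library also had 0.363 for mt-Nd4 to mt-Cytb (0.375 to 0.378) and 0.292 for mt-Nd6 to mt-Co1 (0.27 to 0.274).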

How the results depend on the processing

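The genotype effect across ages kept its direction for all 7 mRNAs in 11 settings and with any library left out. Of the 7, 2 were called by genotype, 0 at adjusted p under 0.01 (a stricter threshold), 1 with library size only (the cause was not tested), and 2 with any library left out. The interaction stayed at 0 in all settings. At single ages 0 of 35 were called, 1 without the libraries with Xist counts, and 0 to 1 with 1 library left out (1 without E14 wild-type replicate 5). Calls between successive ages were 21 to 24, and from E14 to P70 7 throughout. Ratios by genotype gave 10 calls, 3 with medians (the cause was not tested) and 8 to 12 with 1 library left out. Ratios from E14 to P70 gave 34, 32 to 34 with 1 library left out, and 0 with medians, where the exact test cannot reach a smaller p than 0.0476. The share differed by 0.0473 points, from 0.0314 without P70 Setd1a+/- replicate 5 to 0.0705 without P70 wild-type replicate 4. With a replicate block, 2 mRNAs and 7 ratios were called by genotype, without mt-Nd1 to mt-Nd6, mt-Nd5 to mt-Co1 and mt-Nd6 to mt-Co1. The share then differed by 0.0473 points (p = 0.133, permutation test). Of same-numbered pairs 9 of 25 correlated over 0.1, and 7 of 25 wild-type libraries correlated best with their own number. The methods name littermates at postnatal ages, and whether the numbers pair the libraries was not settled by these values. What depth limits was not tested.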

Other observations

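Mitochondrial ribosomal and transfer RNAs were counted in the same libraries and were not tested. Mean levels of mt-Rnr1 were 98.5 CPM in wild-type and 101 in Setd1a+/- at E14, and 2250 and 2450 at P70 (n = 5). Those of mt-Rnr2 were 169 and 173 CPM at E14, and 2810 and 2960 at P70. The 22 transfer RNAs together had 152 and 168 CPM at E14, and 860 and 863 at P70.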
